A study of Mus musculus with 6 samples.

Results

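Granins are acidic proteins that are packed into the dense-core granules of neurons and endocrine cells, and prohormone processing enzymes cut peptide precursors inside those granules. The set described here holds 9 genes of this machinery among the 16384 genes named on the array: Scg5, Scg2, Scg3, Chga, Chgb, Pcsk1, Pcsk2, Cpe and Cadps. The genes were matched by symbol, and each had 1 probe. The set was drawn up with earlier results of these data known. Scg5 was selected on its measured rise in the heterozygous arrays. Its values in comparisons that use those arrays are therefore a description with no test.

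The arrays measured transcript levels in neural stem cells, multipotent progenitors grown in culture, from brain of C57BL6 mice, taken at postnatal day 0. The cells were wild type, heterozygous or homozygous for a changed allele of Ecrg4, with 2 arrays for each label. All cultures were untreated and kept in a medium of DMEM/F12 that held heparin, EGF and bFGF. The sources used here do not say how the allele was changed or whether arrays of a label came from different animals. The p-values measure only the spread between arrays, which may be technical. Values are 1-colour intensities in arbitrary units, scaled by the authors to a median of 30 on each array. As a mark of background, the 95th percentile of 663 olfactory receptor probes was used. It lay between 50.5 and 57.6 per array and is called the reference level below. Of 8 measured neural stem cell markers, 7 exceeded it on all 6 arrays, and the exception was Prom1, at 2.3 to 13.7. The number of arrays limits the precision.

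Ecrg4 encodes a small secreted protein that is itself made as a precursor and cut. Its probe gave 112.9 and 154.9 for wild type, 345.5 and 373.9 for heterozygous, and 1.4 and 1.3 for homozygous. The homozygous label fitted this probe, but the heterozygous arrays read above wild type, which does not follow the number of unchanged alleles. Genotype names below are those of the labels.

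A peptide hormone is made as a long precursor. Pcsk1 and Pcsk2, the prohormone convertases, cut it after pairs of basic residues, and Cpe, carboxypeptidase E, trims the basic residues that remain. Scg5, also called 7B2, is a chaperone of the Pcsk2 proenzyme. Chga, Chgb, Scg2 and Scg3 encode granins, which help to form granules and, for Chga, Chgb and Scg2, are cut into peptides of their own. Cadps encodes CAPS1, which primes dense-core vesicles for calcium-triggered release. Several of these genes are classic markers of neuroendocrine cells, and some are known targets of cyclic AMP signalling through CREB.

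The promoters of these genes differ in the cyclic AMP response element, the letters TGACGTCA, and are shown as a description of those letters. RefSeq promoter windows (assembly GRCm38.p6, 250 bases before to 50 after the start) were matched by symbol for 8 of the 9 genes, and Cpe was not matched. Both strands were searched. The full element was in 3 of 8 windows, those of Scg2, Chgb and Pcsk1, against 1.79% of all 32851 windows. The shorter element TGACG, which also occurs inside the full one, was in 7 of 8, against 20.8%, and Cadps was the window without it. The element began at -68 in Scg2, -72 in Chgb and -78 in Pcsk1, counted back from the start. A short element alone began at -44 in Chga, -30 in Scg3, -34 in Pcsk2 and -175 in Scg5. Scg5 had another 2 after its start. A match is a description of the letters only. The 200 bases before the start are printed 5′ to 3′, with the full or short element in capitals:
Scg2, chr1:79440027-79440226, minus strand: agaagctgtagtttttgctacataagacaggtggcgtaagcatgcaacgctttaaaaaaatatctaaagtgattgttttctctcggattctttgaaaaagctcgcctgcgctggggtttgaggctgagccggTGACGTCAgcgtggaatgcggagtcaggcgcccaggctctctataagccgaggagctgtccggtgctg
Chgb, chr2:132781442-132781641, plus strand: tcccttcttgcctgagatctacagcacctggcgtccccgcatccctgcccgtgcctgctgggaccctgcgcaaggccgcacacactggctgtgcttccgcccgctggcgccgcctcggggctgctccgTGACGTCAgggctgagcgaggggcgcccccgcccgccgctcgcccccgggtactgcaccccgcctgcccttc
Pcsk1, chr13:75089657-75089856, plus strand: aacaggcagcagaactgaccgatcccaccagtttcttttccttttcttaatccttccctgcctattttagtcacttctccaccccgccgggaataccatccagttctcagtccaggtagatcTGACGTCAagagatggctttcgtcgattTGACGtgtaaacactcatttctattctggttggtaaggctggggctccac
Chga, chr12:102554741-102554940, plus strand: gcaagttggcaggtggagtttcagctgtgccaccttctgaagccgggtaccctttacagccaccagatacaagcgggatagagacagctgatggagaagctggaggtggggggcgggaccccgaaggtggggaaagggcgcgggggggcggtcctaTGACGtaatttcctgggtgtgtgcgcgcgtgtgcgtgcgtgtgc
Scg5, chr2:113829092-113829291, minus strand: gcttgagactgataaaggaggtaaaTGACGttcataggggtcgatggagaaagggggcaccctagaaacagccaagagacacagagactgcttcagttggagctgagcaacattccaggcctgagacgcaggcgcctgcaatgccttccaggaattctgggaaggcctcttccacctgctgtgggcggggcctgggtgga
Cadps, chr14:12823080-12823279, minus strand: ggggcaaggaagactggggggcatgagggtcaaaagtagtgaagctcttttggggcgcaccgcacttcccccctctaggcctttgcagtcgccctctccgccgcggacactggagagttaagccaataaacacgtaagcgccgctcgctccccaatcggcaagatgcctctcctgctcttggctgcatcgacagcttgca
In the results below, Scg2, Chga and Cadps were called higher in homozygous than in heterozygous. The window of Scg2 holds a full element, that of Chga a short one and that of Cadps neither. The window of Chgb, which did not pass any test, holds the full one. Those of Scg3 and Pcsk2, which did not pass as tested here, hold a short one. That of Pcsk1, which was not tested, holds the full one. Scg2, Chga, Cadps and Chgb all lay under the reference level on every array. Whether the element bears on their levels was not tested.

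Scg5 was the member chosen for its level in the heterozygous arrays. Its probe gave 4.4 and 5.2 for wild type, 118.0 and 131.5 for heterozygous, and 3.4 and 1.9 for homozygous. Only the heterozygous arrays lay above the reference level, and they did not overlap the others. Against the reference level, the heterozygous arrays exceeded wild type by at least 2.25-fold and homozygous by at least 2.31-fold. Such a bound sets the dimmer arrays at their reference level and makes no allowance for the spread of the brighter ones. The measured differences in log2 intensity were 4.70 ± 0.29 (standard error of the limma fit, n = 2 arrays each) and 5.62 in size, and they depend on the background. Between homozygous and wild type the Scg5 difference was -0.91 ± 0.29 (limma adjusted p = 0.176), with both labels under the reference level. It did not pass, nor did it in a fit of only those 4 arrays (adjusted p = 0.243), whose wild-type arrays also served in the choice of the gene.

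Of the 3 protein-coding genes on either side of Scg5 on its chromosome, Fmn1 and Arhgap11a were measured on all arrays. Neither showed the pattern of Scg5, a check added after the data were seen. Arhgap11a read 70.8 and 80.2 in wild type, 87.1 and 105.8 in heterozygous, and 103.1 and 96.5 in homozygous. Its difference between heterozygous and wild type was 0.35 ± 0.17 (limma adjusted p = 0.41). Fmn1, a formin gene, read between 2.8 and 9.6, under the reference level on every array, and its difference was -0.79 ± 0.34 (adjusted p = 0.379). Tmco5b was blank on heterozygous array 2, and Grem1, Gjd2 and Actc1 had no named probe.

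**Figure D1:**
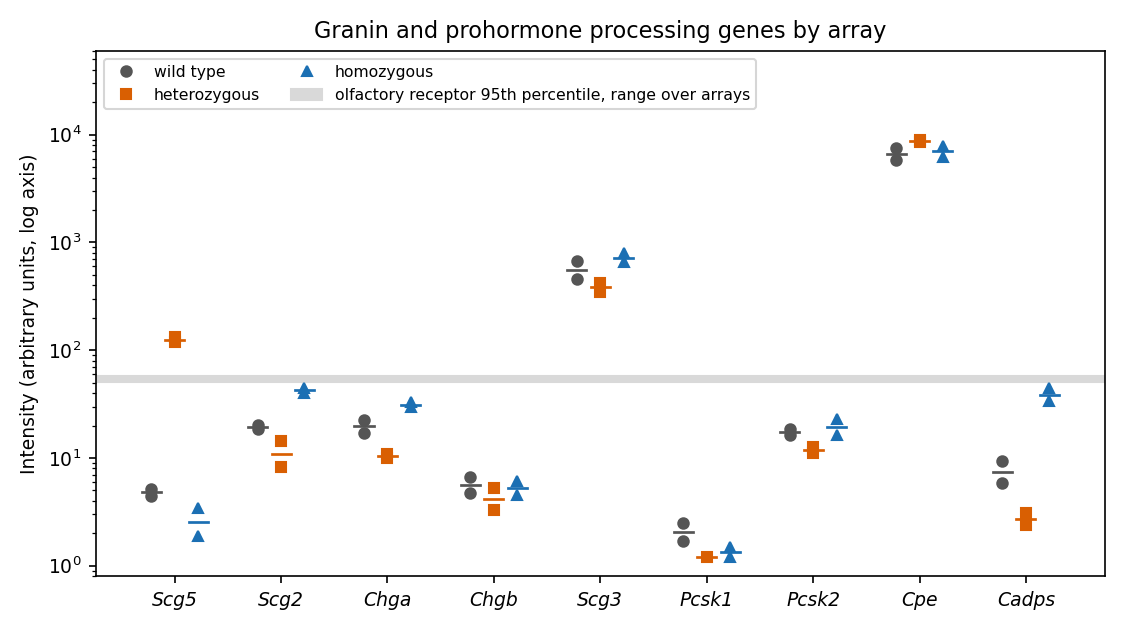
Intensity (log axis, arbitrary units) of the 9 genes on each array, with a short line at the geometric mean of each genotype and a grey band over the reference levels of the 6 arrays. Scg5 exceeds the band in the heterozygous arrays only, Scg3 and Cpe exceed it on all arrays, and the other 6 genes lie under it on every array measured; heights are not comparable between genes.

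The granin Scg2, the precursor of secretoneurin, read 18.6 and 20.4 in wild type, 14.3 and 8.3 in heterozygous, and 44.8 and 40.2 in homozygous. The labels did not overlap, with homozygous highest and heterozygous lowest. Scg2 was higher in homozygous than in heterozygous by 1.96 ± 0.27 log2 units (limma adjusted p = 0.0233, n = 2). The differences from wild type were 1.12 ± 0.27 for homozygous (adjusted p = 0.117) and -0.84 ± 0.27 for heterozygous (adjusted p = 0.29), and neither passed. All 6 values lay under the reference level, so no fold is given. The call between homozygous and heterozygous ended without heterozygous array 2 (adjusted p = 0.0719), homozygous array 1 (0.173) or homozygous array 2 (0.16).

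Chga, which encodes chromogranin A, a protein that promotes granule formation, had the same order. It read 22.4 and 17.2 in wild type, 10.9 and 9.9 in heterozygous, and 29.5 and 33.0 in homozygous, again with no overlap between labels. Its difference between homozygous and heterozygous was 1.59 ± 0.18 log2 units (limma adjusted p = 0.0144). Against wild type, Chga differed by 0.67 ± 0.18 in homozygous (adjusted p = 0.147) and by -0.92 ± 0.18 in heterozygous (adjusted p = 0.125). All values lay under the reference level. Leaving out either heterozygous array (0.0733 and 0.1 for arrays 1 and 2) or either homozygous array (0.112 and 0.142) ended the call.

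The other granins did not pass in any comparison. Scg3, which encodes a granule protein that binds chromogranin A, read 672.4 and 458.6 in wild type, 424.0 and 349.5 in heterozygous, and 797.1 and 654.2 in homozygous. Every value lay above the reference level, and the homozygous arrays lay above the heterozygous ones without overlap. Scg3 was measured 1.88-fold higher in homozygous than in heterozygous (95% interval 1.26 to 2.79, limma adjusted p = 0.119). That difference passed in 4 of 16 alternatives: with a pseudocount (0.0427), after a filter on dim probes (0.0381), with array weights (0.0493) and with a trended, robust prior (0.0226). Chgb, which encodes chromogranin B, read between 3.3 and 6.7 on all arrays, and its labels overlapped in each comparison. Its intervals for homozygous against wild type and against heterozygous spanned factors of 0.56 to 1.56 and 0.75 to 2.09. Differences of the probe's reading within those factors were not excluded. Every Chgb value lay under the reference level, so the factors depend on the background.

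The convertases were dim. Pcsk2 read 18.6 and 16.2 in wild type, 12.6 and 11.0 in heterozygous, and 22.8 and 16.2 in homozygous, all under the reference level. The heterozygous arrays were lowest and overlapped neither other label, but the difference from wild type (-0.56 ± 0.21, limma adjusted p = 0.334) and that between homozygous and heterozygous (0.71 ± 0.21, adjusted p = 0.155) did not pass. Pcsk2 was thus not at its highest in the heterozygous arrays, where its chaperone gene Scg5 read highest. Pcsk1 read 1.7 and 2.5 in wild type, 1.2 on heterozygous array 1, and 1.2 and 1.5 in homozygous. It was blank on heterozygous array 2 and was not tested. These values are near the lowest on any array, which lay between 1.0 and 1.5.

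Cpe was bright in all genotypes. It read 5774 and 7480 in wild type, 8854 and 8480 in heterozygous, and 7890 and 6174 in homozygous. The heterozygous arrays were highest and overlapped neither other label. The difference between heterozygous and wild type was 1.32-fold (95% interval 0.94 to 1.85, limma adjusted p = 0.425), and that of homozygous against heterozygous was a factor of 0.81 (0.58 to 1.13, adjusted p = 0.471). Neither passed, and the interval leaves room for changes of Cpe up to 1.85-fold in heterozygous against wild type.

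Cadps, the vesicle priming factor, had the widest range among the members other than Scg5. It read 9.4 and 5.9 in wild type, 2.4 and 3.1 in heterozygous, and 44.1 and 33.6 in homozygous. The labels did not overlap, and the order was again homozygous, wild type, heterozygous. Cadps was higher in homozygous than in heterozygous by 3.82 ± 0.28 log2 units (limma adjusted p = 0.00429) and higher in homozygous than in wild type by 2.37 ± 0.28 (adjusted p = 0.028). In heterozygous against wild type the difference was -1.45 ± 0.28 (adjusted p = 0.115). All 6 values lay under the reference level, so the size of these differences depends on the background. With a pseudocount of 16 the difference between homozygous and heterozygous was 1.54, and that between homozygous and wild type was 1.21. Leaving out any 1 of the 6 arrays ended the call between homozygous and wild type, with adjusted p of 0.0611 and 0.0509 without wild-type arrays 1 and 2, 0.0577 without either heterozygous array, and 0.201 and 0.179 without homozygous arrays 1 and 2. The call between homozygous and heterozygous ended without homozygous array 1 (0.061) or 2 (0.0542).

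**Figure D2:**
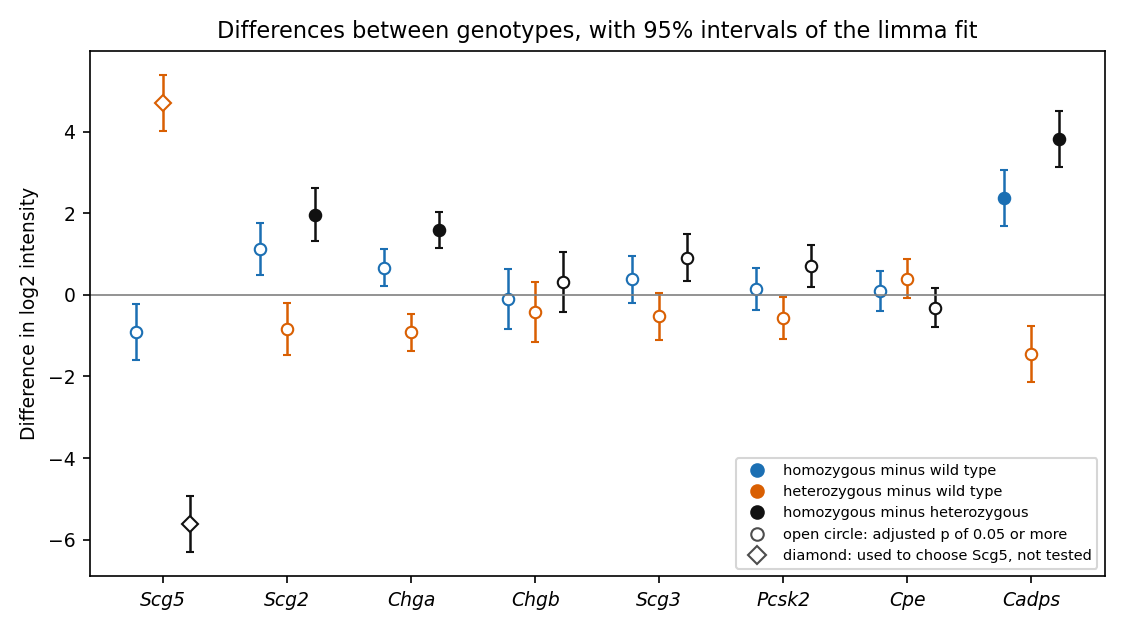
Differences in log2 intensity between labels for the 8 genes measured on all arrays, with 95% intervals of the limma fit; filled circles passed an adjusted p of 0.05, and diamonds are the untested Scg5 contrasts. Scg2, Chga and Cadps pass in homozygous minus heterozygous, at 1.96, 1.59 and 3.82, and Cadps also passes in homozygous minus wild type, at 2.37.

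Over the 7 members other than Scg5 that were measured on all arrays, 3 were higher in homozygous than in heterozygous and 0 were lower, where 1.26% of all 20434 probes tested were called higher and 2.69% in either direction. The median log2 difference of the 7 was 0.91, beside 0.04 over all probes. Between homozygous and wild type 1 of 7 was called, Cadps, where 0.92% of all probes were, and the median was 0.38 beside 0.02. Between heterozygous and wild type limma called 0 of 7, where 0.749% of all probes were called. At an unadjusted p under 0.05 there were 4 of 7, against 13.5% of all probes, and the fit with a trended, robust prior called 1, Cadps. The median there was -0.56 beside -0.01, and 6 of 7 differences lay below 0. The labels did not overlap for 3 of 7 members in homozygous against wild type, 6 of 7 in heterozygous against wild type and 6 of 7 in homozygous against heterozygous. Over all probes these shares were 50.5%, 45.5% and 54.6%. These comparisons share arrays, so their counts are not independent.

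Scg2, Chga and Cadps each had the order homozygous, wild type, heterozygous with no overlap between labels, an order noted after the values were seen. It held for 3 of 7 members against 3.21% of all probes. By the means alone it held for 5 of 7, with Scg3 and Pcsk2 added, against 18.8%. Scg5 and Cpe were instead highest in the heterozygous arrays. Scg5 was chosen for that rise, and the Cpe differences did not pass. Scg2, Scg3, Chga and Chgb had their lowest means in the heterozygous arrays, though the Chgb labels overlapped and lay under the reference level.

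Other genes of the secretory pathway were read from lists, at 1 probe per gene. Among granule biogenesis and docking genes, Rab3b, a small GTPase of regulated vesicles, had the order of Cadps on a probe above the reference level on all arrays. It read 383.4 and 341.0 in wild type, 80.3 and 84.4 in heterozygous, and 567.0 and 559.8 in homozygous, with no overlap. Rab3b was 6.84-fold higher in homozygous than in heterozygous (95% interval 5.35 to 8.76, limma adjusted p = 0.00305) and 4.39-fold lower in heterozygous than in wild type (3.43 to 5.62, adjusted p = 0.005). The difference of homozygous from wild type, 1.56-fold, did not pass (adjusted p = 0.11). Its paralog Rab3c, on a dim probe that may not separate the copies, was higher in homozygous than in heterozygous by 1.69 ± 0.27 (adjusted p = 0.0344). Of the 21 tested members of this list, limma thus called 2 higher between homozygous and heterozygous, 1 lower between heterozygous and wild type, and 0 between homozygous and wild type. Over all probes, 1.26% were called higher between homozygous and heterozygous. Called in either direction were 0.749% between heterozygous and wild type and 0.92% between homozygous and wild type. In that last comparison 6 of 21 had an unadjusted p under 0.05, where 19% of all probes had, and a trended, robust prior called 3 of 21 and 1094 of all 20434 probes. The Rab3b call between heterozygous and wild type ended without heterozygous array 2 (0.0528), and that between homozygous and heterozygous without homozygous array 1 (0.0571) or 2 (0.0542). The Rab3c call ended without any 1 of the heterozygous or homozygous arrays, with adjusted p of 0.0603 to 0.216.

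The remaining lists held few calls, and over all probes calls were also few, at 2.69% or less in each comparison. Of 6 tested granin-like and convertase genes, 0 passed in any comparison, with 1 at an unadjusted p under 0.05. That gene was Pcsk1n, which encodes the Pcsk1 inhibitor proSAAS. It read 237.9 and 261.6 in wild type, 349.7 and 300.7 in heterozygous, and 211.5 and 201.0 in homozygous, and was called lower in homozygous than in heterozygous in 4 of 16 alternatives (limma adjusted p = 0.099 as tested here). Over all probes, the shares at an unadjusted p under 0.05 were 19% in homozygous against wild type, 13.5% in heterozygous against wild type and 18.2% in homozygous against heterozygous. Of 10 peptide trimming and modification genes 0 passed, with 1, 0 and 2 at an unadjusted p under 0.05 in that order. Of 22 exocytosis genes 0 passed, with 2, 4 and 5.

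Among 32 tested peptide precursor genes, Ecrg4 itself was called in all 3 comparisons. Its call between heterozygous and wild type held with 1 array left out only when that was wild-type array 2, and was otherwise lost, at adjusted p of 0.112 to 0.225. At an unadjusted p under 0.05 there were 7, 5 and 10 of the 32 in homozygous against wild type, heterozygous against wild type and homozygous against heterozygous, beside the 19%, 13.5% and 18.2% of all probes. Besides Ecrg4, Calcb, the beta form of calcitonin gene-related peptide, was higher in homozygous than in heterozygous by 0.89 ± 0.16 (limma adjusted p = 0.0487) on a dim probe. The hormone precursor gene Adm read 1839 and 1835 in the homozygous arrays against 910.7 and 599.3 in the heterozygous ones, and did not pass (1.31 ± 0.27, adjusted p = 0.0637). Against wild type, at 584.0 and 845.0, the Adm difference was 1.39 ± 0.27 (adjusted p = 0.0773). Under quantile, cyclic loess and median scaling Adm passed in both comparisons, with adjusted p of 0.045, 0.049 and 0.0468 against wild type and 0.0308, 0.0334 and 0.0333 against heterozygous. It also passed in both with the pseudocount, the filter and the trended, robust prior. With array weights Adm passed against heterozygous (0.0263) and not against wild type (0.0999). It passed in neither with blanks filled, only the arrays compared or the replicate block (0.0595 to 0.156 over these), nor with any 1 array left out. Of 8 neuroendocrine regulators, 4, 2 and 2 had an unadjusted p under 0.05 in the same order of comparisons. Of these the zinc finger factor gene Myt1 was higher in homozygous than in wild type by 1.68 ± 0.23 (adjusted p = 0.0416), on a dim probe that read 12.3 and 13.6 in wild type and 40.0 and 42.9 in homozygous. The Myt1 call ended without any 1 of the wild-type or homozygous arrays, with adjusted p of 0.0635 to 0.26. That of Calcb ended without any 1 of the 6 arrays, at 0.0547 to 0.277.

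**Figure D3:**
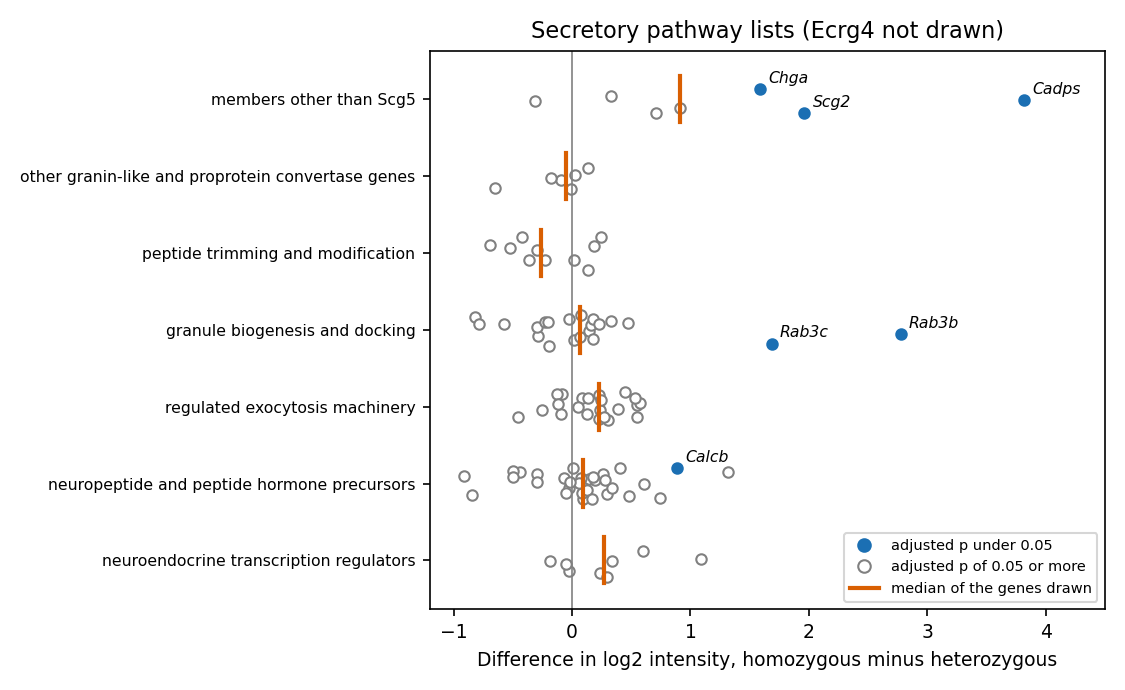
Each circle is 1 gene's difference in log2 intensity, homozygous minus heterozygous, by list; filled circles passed an adjusted p of 0.05 and orange bars are medians of the genes drawn. Outside the members, Rab3b at 2.77, Rab3c at 1.69 and Calcb at 0.89 passed, and Ecrg4 is left out of the drawing.

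Markers of other cells were read beside these results. Of 11 measured neuron markers 10 lay under the reference level on all arrays, among them Snap25, Syp, Stmn2 and Tubb3. The exception was the RNA-binding protein gene Elavl4, at 254.6 and 244.3 in homozygous, 107.8 and 83.0 in wild type, and 113.6 and 94.1 in heterozygous. The list's summed intensity was 442.4 to 495.9 in homozygous, 277.0 to 317.8 in wild type and 261.4 to 289.4 in heterozygous. Without Elavl4 the other 10 markers summed to 241.3 and 198.1 in homozygous, 210.0 and 194.0 in wild type, and 175.8 and 167.3 in heterozygous, so homozygous and wild type overlapped. Among 6 neuroendocrine markers Th, Dbh, Pnmt, Pomc and Prl lay under the reference level, and the sum was 190.8 to 217.9 in wild type, 144.2 to 173.5 in heterozygous and 147.8 to 166.9 in homozygous. Without Gh the other 5 summed to 51.0 and 52.1 in wild type, 62.9 and 51.8 in heterozygous, and 39.5 and 57.3 in homozygous. Each pair of labels then overlapped. Of 7 mesenchymal markers, Acta2 alone exceeded the reference level on all arrays, and the sum was 1050 to 1336 in wild type, 387.6 to 394.6 in heterozygous and 191.7 to 220.2 in homozygous. Without Acta2 the other 6 summed to 106.8 and 154.8, 117.1 and 103.0, and 103.7 and 101.7 in that order of labels, which overlapped between wild type and heterozygous and between heterozygous and homozygous. Of 7 astrocyte markers 3 exceeded the reference level on all arrays, and the sum was 9925 to 11028 in wild type, 8955 to 9016 in heterozygous and 7551 to 8478 in homozygous. Aldoc held 62.3% to 84.4% of that sum. Without it the other 6 summed to 1553 and 2137 in wild type, 3402 and 3356 in heterozygous, and 2188 and 2007 in homozygous. That sum was highest in heterozygous and was mostly Gja1 (2917 and 2925 there). S100b (356.0 and 337.5), Aqp4 (66.8 and 45.5, the latter under the reference level) and the dim Aldh1l1 (48.0 and 25.7) also read highest there. The labels overlapped for Gfap (3.6 to 7.3 over all arrays) and Slc1a2 (7.1 to 17.0). Of 6 oligodendrocyte lineage markers 2 exceeded the reference level on all arrays, with sums of 9774 to 10267, 11128 to 12969 and 11219 to 13456 in wild type, heterozygous and homozygous. Without Olig1 the other 5 summed to 2969 and 3334, 3574 and 4288, and 3108 and 2714 in that order, so homozygous and wild type overlapped. These sums without 1 gene were added after the data were seen. Of 7 microglial, 5 endothelial and 6 choroid plexus or ependymal markers 0, 0 and 2 exceeded the level on all arrays. In homozygous against each other label, limma called 1 neuron and 1 microglial marker higher and 1 mesenchymal marker lower. In heterozygous against wild type it called 1 microglial and 1 mesenchymal marker lower. Between homozygous and heterozygous, 1 astrocyte marker was also called lower in homozygous. The other lists held 0 calls, and over all probes 2.69% or less were called in each comparison. The part of these markers in the results above was not tested. In bulk samples, fewer cells of a type and less RNA per cell cannot be told apart.

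The genes whose profiles over the 6 arrays lay nearest to each member were found among 7138 genes that exceeded the reference level on at least 2 arrays, by the distance between log2 profiles centred on their means. For Scg5 they were Ilvbl (distance 1.74), Timp1 (2.21), Phyh (2.62), Gng2 (2.64) and Chl1 (2.69). All 5 read highest in both heterozygous arrays, with smaller steps than Scg5. For Cadps they were Nxph1 (1.11), Lpo (1.29), Kcnk1 (1.41), Dmrta2 (1.48) and Gbp4 (1.62). For Scg2 the nearest was Akap12 (0.25), followed by Igsf21, Rnf180, Ina and Gbp4 (0.61 to 0.64). Akap12 read 132.4 and 136.1 in wild type, 86.9 and 57.8 in heterozygous, and 260.6 and 265.6 in homozygous. For Chga the nearest were Cd24a (0.30), Adamts8 (0.35), Ccnd2 (0.46), Sppl2b (0.48) and Traf3ip2 (0.48). The cyclin gene Ccnd2 read 5818 and 6042 in wild type, 3731 and 3709 in heterozygous, and 9966 and 9232 in homozygous. These genes were chosen for likeness, so their order carries no test, and some of them lay under the reference level in the heterozygous arrays, such as Ina and Adamts8.

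**Figure D4:**
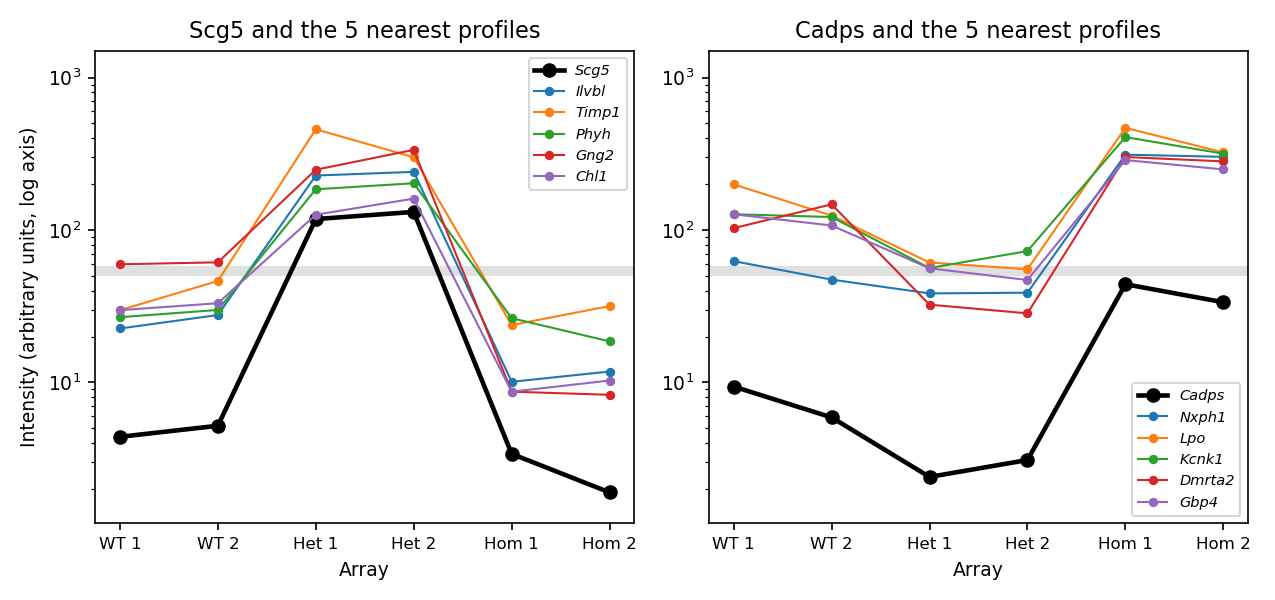
Intensity (log axis, arbitrary units) on the 6 arrays for Scg5 (left) and Cadps (right), in black, and the 5 genes with the nearest centred log2 profiles, in colour, with the reference levels as a grey band. The genes near Scg5 read highest in both heterozygous arrays, and those near Cadps read highest in both homozygous arrays.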

How the data were processed

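Neural stem cells of 3 Ecrg4 labels were measured on 6 arrays, with groups taken from the sample titles. The authors deposited linear 1-colour intensities, and each array has a median intensity of 30, so they were read as scaled by the authors. Per the labels' protocols, RNA was amplified to amino allyl aRNA and coupled to a dye. The labels also give biotin. The sources used here do not state the background correction, scanner, software or rule for blank cells.

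Intensities were log2-transformed without a pseudocount. Of 23466 probes, the 20434 without a blank cell were fitted with limma 3.58.1 in R 4.3.3 (lmFit, eBayes) with 1 coefficient per genotype and no block. Residual degrees of freedom were 3, and the prior added 3.27. Tests were two-sided, adjusted by Benjamini-Hochberg over all tested probes, at a threshold of 0.05. Symbols came from the platform annotation, updated through RefSeq (GRCm38.p6): 1 symbol was listed for 16625 probes, several for 0 and none here for 6841, 3943 symbols were replaced, and Ecrg4 was listed under an older one. A gene with several probes was read from the brightest. The text names all members, Ecrg4, up to 4 passing genes per list and comparison, and the 5 nearest profiles of Scg5 and of each passing member; others are named as exceptions, chosen after their values were seen. Members, lists and the olfactory receptor level were chosen with earlier results of these data known. The script was tested on simulated data. Alternatives changed scaling, pseudocount, filter, blank cells, variance model, samples, block and each array left out.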

Additional observations from a re-analysis of the deposited data

How the results depend on the processing

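The direction of every difference that passed among the members (Cadps, Scg2 and Chga) was kept in all alternatives in which it was tested. The count of called members other than Scg5 between homozygous and wild type, 1 of 7, became 2 with a pseudocount of 16 or with a trended, robust prior, and 0 with the filter on dim probes, which left 2 members, with blank cells filled, with only the arrays compared and with the replicate block. Leaving out 1 array gave 0 throughout. Between heterozygous and wild type the count of 0 became 1 with the trended, robust prior, and leaving out 1 array gave 0. Between homozygous and heterozygous the count of 3 became 4 with the pseudocount, array weights or the trended, robust prior, with Scg3 added, 1 with the filter, and 0 to 3 with 1 array left out. A label left with 1 array was assumed to vary like the others.

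Over all probes, 188 were called between homozygous and wild type, against 328 with quantile scaling, 313 with cyclic loess, 314 with median centring, 1143 with the pseudocount, 849 with the filter, 88 with blanks filled, 1094 with the trended, robust prior, 89 with array weights, 59 with only the arrays compared, 47 with the replicate block, and 1 to 224 with 1 array left out. Between heterozygous and wild type 153 were called, against 306 with the pseudocount, 400 with the trended, robust prior, 100 with array weights, 40 with only the arrays compared, 51 with the replicate block, and 18 to 340 with 1 array left out. Between homozygous and heterozygous 549 were called, against 1376 with the pseudocount, 974 with the filter, 320 with blanks filled, 1357 with the trended, robust prior, 1261 with array weights, 244 with the replicate block, and 6 to 680 with 1 array left out. The filter tests fewer probes; otherwise the cause was not tested.

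Differences that did not pass changed sign with 1 array left out for Chgb (-0.35 to 0.16), Pcsk2 (-0.10 to 0.39) and Cpe (-0.10 to 0.27) between homozygous and wild type, and for Chgb between homozygous and heterozygous (-0.017 to 0.67). With the replicate block the adjusted p of Cadps between homozygous and wild type was 0.0724. The numbers in the titles did not pair the arrays: deviations of same-numbered arrays correlated at 0.016, 0.01 and -0.076 across probes. Signal over background limits 6 of the 9 members, which lay under the reference level on all arrays measured.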

Other observations

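Gh, the growth hormone gene and a marker of pituitary cells, was the neuroendocrine marker whose probe exceeded the reference level on all 6 arrays. It read 139.8 and 165.8 in wild type, 110.6 and 92.4 in heterozygous, and 108.3 and 109.6 in homozygous. Prl, another pituitary hormone gene, read 2.3 on wild-type array 1 and on heterozygous array 1 and was blank on the other arrays. Sst, the somatostatin precursor gene, read 150.7 and 129.6 in wild type, 130.6 and 120.4 in heterozygous, and 92.1 and 93.2 in homozygous, and its difference between homozygous and wild type did not pass (-0.59 ± 0.15, limma adjusted p = 0.133). Ptprn, which encodes a membrane protein of dense-core granules, read 177.5 and 152.9 in wild type, 144.0 and 110.3 in heterozygous, and 100.3 and 105.6 in homozygous. Its difference between homozygous and wild type, -0.68 ± 0.19, did not pass either (limma adjusted p = 0.147). Both Sst and Ptprn thus read lowest in the homozygous arrays, where Scg2, Chga and Cadps read highest. These genes were singled out after their values were seen.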
